A study of Mus musculus with 7 samples.

Results

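The enzymes and lipid carriers described here are Mboat7, Sec14l2, Dagla, Gk, Acsf2 and Hadh, 6 genes of fatty acid and glycerolipid metabolism among the 1593 genes that could be named on the arrays. Each was found by its symbol in the authors' deposited fold table, which pairs it with 1 probe set. The genes were chosen by measured values. Every entry of that table has a fold of 1.4 or more in size between the 2 groups of CETP mice, and the 6 were picked from it with earlier results for these arrays known. Their differences between those groups are therefore given as a description without a test. Either CETP group set against wild type brings in the same arrays, so those directions are not independent of that choice.

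The study measured gene expression in astrocytes of 7 mice on 1 single-colour Affymetrix array per animal. The transgenic strain, B6.CBA-Tg(CETP)5203Tall/J, carries the human cholesteryl ester transfer protein (CETP), which exchanges lipids between plasma lipoproteins and has no counterpart in mice, and the series' design text says that dietary cholesterol induces it. The arrays form 3 groups, namely CETP mice fed 1% cholesterol (n = 3, numbered 1, 2 and 3), CETP mice labelled standard diet (n = 2, numbered 4 and 5) and wild-type mice on standard diet (n = 2, numbered 2 and 3). By the growth protocol all transgenic animals received cholesterol, for 2 months between 2 and 4 months of age, so the diet of the middle group rests on its own label. Age and background strain of the wild-type mice were not stated in the labels. Cells came from whole brain by a magnetic ACSA-2 kit, with a stated purity of more than 70% by GFAP. In such bulk samples fewer cells of a type and less RNA per cell cannot be told apart.

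Cells use fatty acids only after a synthetase has joined them to coenzyme A. The activated acids are then either shortened in mitochondria by beta-oxidation or built onto a glycerol backbone to make triglycerides and phospholipids. Lipases release acyl chains from that backbone again, and among the products of diacylglycerol are signalling lipids such as endocannabinoids. In the brain, astrocytes are known to oxidise fatty acids more readily than neurons do. The 6 genes stand at different points of this network: Mboat7 and Sec14l2 act on membrane lipids and lipid carriage, Dagla and Gk on the glycerol backbone and its acylglycerols, and Acsf2 and Hadh on the activation and oxidation of fatty acids.

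The values are log2 intensities of the authors, and a difference of 1 is a 2-fold difference. Array medians over transcripts lay between 7.51 and 7.59, and correlations between arrays between 0.977 and 0.992. The hybridization spike-in controls, bacterial and phage sequences added to each sample, averaged 11.21 to 11.77 on the cholesterol-diet arrays, 11.02 to 11.22 on the CETP standard-diet-label arrays and 10.80 to 11.00 on the wild-type arrays. Only 2 of 15 astrocyte markers were named, Slc1a3 and Sox9, and their summed level was 14.80 to 15.71 with cholesterol, 14.93 to 14.99 with the CETP standard-diet label and 14.63 to 15.01 in wild type. That sum follows the brighter Sox9, whose cholesterol-diet arrays overlapped with wild type. Slc1a3 alone was 13.61, 12.67 and 13.68 with cholesterol, each above the 12.59 and 11.59 in wild type (difference 1.23 ± 0.38 SE). With the standard-diet label it was 12.62 and 12.20. The 12 named microglial markers of 17 summed to 15.86 on CETP standard-diet-label replicate 4, against 13.27 on replicate 5, 12.96 to 13.78 on the cholesterol-diet arrays and 12.42 to 13.09 in wild type. All 12 had higher means with the standard-diet label than in wild type (median difference 1.95), and 11 of 12 with cholesterol (median 0.76). Up to 9 of these 12 were at or below the median negative control on an array. The 5 named endothelial markers of 12 summed to 11.94 to 12.33 with cholesterol and 12.28 to 12.93 with the CETP standard-diet label, against 11.34 to 11.62 in wild type, and all 5 had higher means with the standard-diet label than in wild type (median difference 0.97). The neuronal Camk2a and the oligodendrocyte gene Olig2, the only named markers of their lists, were higher on every cholesterol-diet array than in wild type, while the sums of the 3 mural and the 4 ependymal and choroid plexus markers overlapped with wild type in both CETP groups. Taken singly, the mural Mylk was higher on every CETP array than in wild type, by 1.43 with cholesterol and 1.83 with the standard-diet label. Mural means were higher than in wild type for 3 of 3 markers with cholesterol and 2 of 3 with the standard-diet label. For ependymal and choroid plexus markers this held for 2 of 4 with cholesterol and 4 of 4 with the standard-diet label (median difference 0.44). The part of the spike-in level and of other cell types in the results below was not tested. Fits with a spike-in covariate are given where they matter. Every wild-type array was below every CETP array in these controls. Such a fit therefore compares CETP with wild type at spike-in levels that the groups did not share, and it cannot cleanly part the covariate from the group. No named probe set stood for the CETP transgene, which was not analysed here.

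In CETP mice labelled standard diet all 6 genes had lower means than in wild type, and in CETP mice on cholesterol 3 had lower and 3 higher means. Over all features, 57.3% had lower means than in wild type with the standard-diet label and 56.4% with cholesterol. Gk was lowest with cholesterol, Dagla and Sec14l2 were lowest with the standard-diet label, and Mboat7, Hadh and Acsf2 had their highest means with cholesterol. Across the 22193 features tested, limma called 0 (0%) at an adjusted p of 0.05 in each of the 3 comparisons, so no member passed in either comparison with wild type. At an unadjusted p under 0.05 there were 1924 features for the cholesterol diet against wild type, 1175 for the standard-diet label against wild type and 675 between the CETP groups. A fraction of 0.05 of the 22193 features is expected to pass that threshold without any difference, so these counts are not calls.

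**Figure D1:**
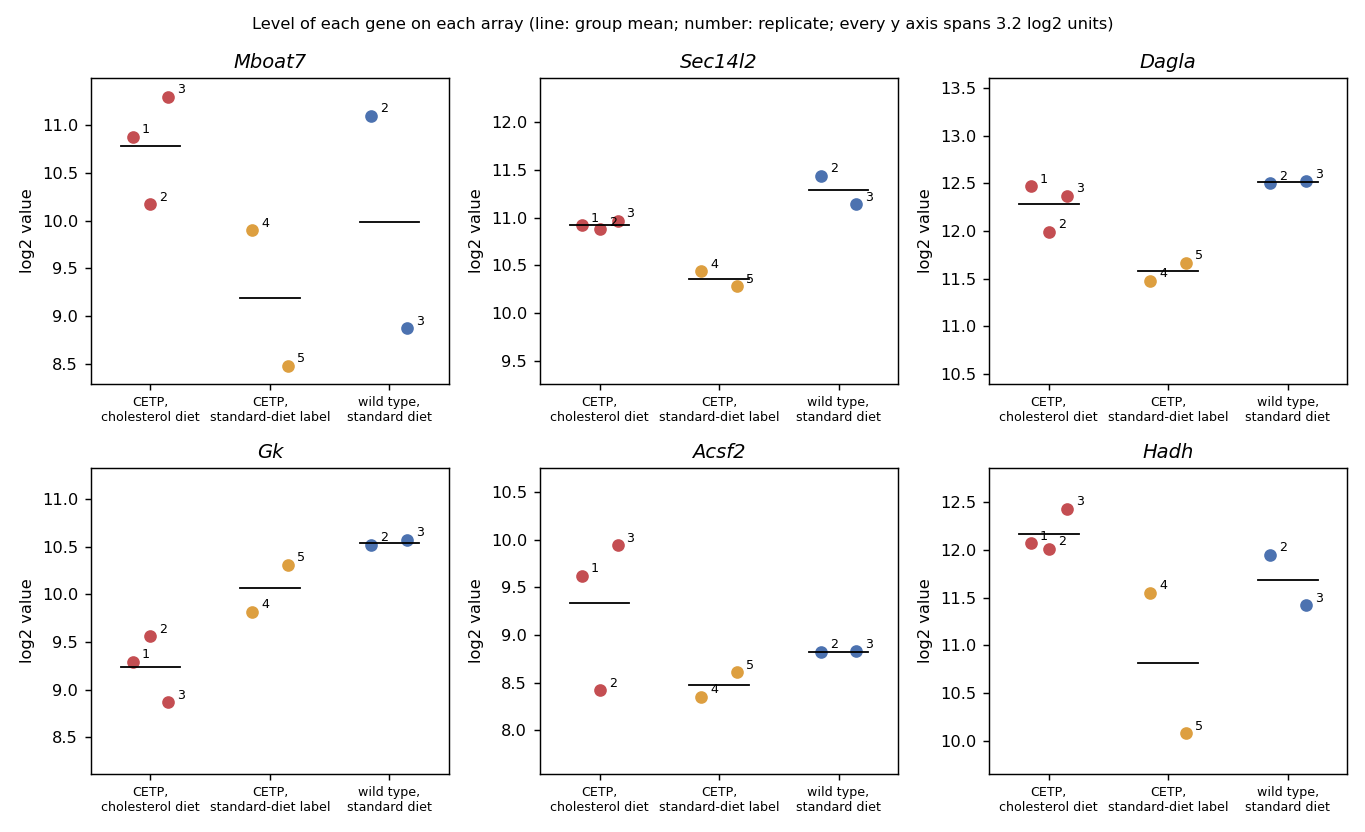
Log2 value (y axis, of equal length in log2 units in every panel) of the 6 genes on each of the 7 arrays, by group along the x axis, with the group mean as a line and the replicate number beside each point. Gk, Sec14l2 and, by a gap of only 0.037, Dagla show 3 groups that do not overlap, while the 2 wild-type arrays of Mboat7 lie 2.23 apart.

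Upstream sequence is shown for Gk, Sec14l2 and Hadh. The arrays of Gk, Sec14l2 and Dagla were apart in all 3 pairs of groups, and Hadh is the beta-oxidation enzyme. The share of all features apart in all 3 pairs was not counted, and the pairs include the comparison behind the fold table. That separation therefore only served to choose which windows to show. RefSeq promoter entries (GRCm38.p6) matched 5 of the 6 members, all but Dagla. For the 3 shown the window lies wholly outside the gene model. Each run holds the 250 bases before the transcription start, 5′ to 3′ on the gene's strand, which is the minus strand in each case. The intervals are chrX:85776820-85777069 for Gk, chr11:4118730-4118979 for Sec14l2 and chr3:131272102-131272351 for Hadh. Capitals mark matches on either strand to the GC box GGGCGG, the E-box CACGTG and the CCAAT box CCAAT.

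Gk: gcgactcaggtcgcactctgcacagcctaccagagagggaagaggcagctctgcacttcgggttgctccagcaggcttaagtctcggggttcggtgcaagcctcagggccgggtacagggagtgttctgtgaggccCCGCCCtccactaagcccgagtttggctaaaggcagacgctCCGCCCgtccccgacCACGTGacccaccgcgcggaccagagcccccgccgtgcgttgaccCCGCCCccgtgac

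Sec14l2: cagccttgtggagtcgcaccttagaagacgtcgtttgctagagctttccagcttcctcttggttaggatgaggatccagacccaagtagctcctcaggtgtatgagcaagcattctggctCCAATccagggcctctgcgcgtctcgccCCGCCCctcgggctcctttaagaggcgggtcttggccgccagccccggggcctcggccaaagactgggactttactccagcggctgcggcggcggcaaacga

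Hadh: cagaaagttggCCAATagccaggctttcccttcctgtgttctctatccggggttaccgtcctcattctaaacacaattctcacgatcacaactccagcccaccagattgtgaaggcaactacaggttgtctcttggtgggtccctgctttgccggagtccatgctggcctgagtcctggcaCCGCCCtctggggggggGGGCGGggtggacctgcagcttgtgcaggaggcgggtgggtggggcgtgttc

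The Gk window held 3 GC boxes and 1 E-box, the Sec14l2 window 1 GC box and 1 CCAAT box, and the Hadh window 2 GC boxes and 1 CCAAT box. Of 32851 windows of the same length, 32.7% hold a GC box, 6.02% an E-box and 33.8% a CCAAT box. The cAMP response element core TGACGT (6.47% of windows) and the nuclear receptor half-site AGGTCA (14.0%) were searched as well and had no match in these 3 windows. None of these motifs overlapped another here. GC content was 67.2% for Gk, 61.6% for Sec14l2 and 59.6% for Hadh, with a median of 52.4% over all windows. These matches describe the letters only.

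Mboat7 encodes a lysophosphatidylinositol acyltransferase that puts arachidonic acid into phosphatidylinositol. It measured 10.88, 10.17 and 11.30 on the 3 cholesterol-diet arrays, 9.90 and 8.48 on the standard-diet-label arrays of CETP mice, and 11.10 and 8.87 in wild type. Both CETP groups thus overlapped with wild type, whose 2 animals spanned nearly the whole range of the gene. The mean difference from wild type was 0.80 ± 0.63 (SE) with cholesterol and -0.80 ± 0.69 with the standard-diet label. Each turned with 1 wild-type array. The cholesterol difference was -0.32 without wild-type replicate 3 and 1.92 without wild-type replicate 2. The standard-diet-label difference was 0.32 without wild-type replicate 2 and -1.91 without wild-type replicate 3, and it was -1.50 without CETP standard-diet-label replicate 4 and -0.09 without replicate 5. With the spike-in level as a covariate the difference from wild type was -0.29 with cholesterol and -1.24 with the standard-diet label. The residual SD of Mboat7 within groups was 1.02, against a median of 0.265 over all features.

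Sec14l2 encodes a lipid-binding protein of the SEC14 family, known from rat liver as a factor that stimulates squalene epoxidation in sterol synthesis. It measured 10.92, 10.88 and 10.97 on the cholesterol-diet arrays, 10.44 and 10.28 on the CETP standard-diet-label arrays, and 11.44 and 11.14 in wild type. No 2 groups overlapped, with the standard-diet label lowest and wild type highest. The difference from wild type was -0.37 ± 0.20 (SE) with cholesterol and -0.93 ± 0.22, a 1.91-fold difference, with the standard-diet label. The first of these rests in part on wild-type replicate 2, without which it was -0.22. Its residual SD, 0.12, was the smallest of the 6 genes.

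Dagla encodes diacylglycerol lipase alpha, the enzyme that makes the endocannabinoid arachidonoylglycerol from diacylglycerol. It measured 12.47, 11.99 and 12.37 with cholesterol, 11.48 and 11.67 with the standard-diet label, and 12.50 and 12.52 in wild type. The 2 wild-type arrays were nearly equal, and the CETP standard-diet-label arrays lay below every other array. The difference from wild type was -0.93 ± 0.23 (SE) with the standard-diet label, again 1.91-fold. With cholesterol it was -0.23 ± 0.21, with a gap of only 0.037 between the arrays of the 2 groups, and it was -0.54 with the spike-in covariate. Without cholesterol-diet replicate 2 that difference was -0.09.

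Gk encodes glycerol kinase, which makes glycerol 3-phosphate, the backbone precursor of triglycerides and phospholipids, and lies on the X chromosome. It measured 9.29, 9.56 and 8.87 with cholesterol, 9.82 and 10.31 with the standard-diet label, and 10.52 and 10.57 in wild type. The 3 groups did not overlap, and Gk was the only member lower with cholesterol than with the standard-diet label. The difference from wild type was -1.30 ± 0.26 (SE), or 2.47-fold, with cholesterol and -0.47 ± 0.28 with the standard-diet label. The spike-in controls were highest on cholesterol-diet replicate 3, where Gk was lowest, and with them as a covariate the cholesterol difference was -0.87. The standard-diet-label difference was -0.23 without CETP standard-diet-label replicate 4 and -0.72 without replicate 5, and it was -0.30 with the spike-in covariate.

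Acsf2 encodes a mitochondrial acyl-CoA synthetase that activates medium-chain fatty acids. It measured 9.62, 8.42 and 9.94 with cholesterol, 8.35 and 8.61 with the standard-diet label, and 8.82 and 8.83 in wild type. Cholesterol-diet replicates 1 and 3 stood above all other arrays, while replicate 2 of the same group lay below both wild-type arrays. The difference from wild type was 0.51 ± 0.39 (SE) with cholesterol and -0.34 ± 0.43 with the standard-diet label. The first turned to -0.69 with the spike-in covariate. The spike-in controls were highest on the same replicates 1 and 3, but they were also lower in wild type than on every CETP array. That fit therefore cannot cleanly part the covariate from the group. The cholesterol difference was 0.96 without cholesterol-diet replicate 2 and 0.20 without replicate 3. The second was -0.21 without CETP standard-diet-label replicate 4 and -0.82 with the spike-in covariate. On its lowest array Acsf2 exceeded 63.0% of the negative control entries of that array, the smallest such share among the 6 genes.

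Hadh encodes the hydroxyacyl-CoA dehydrogenase that carries out the third step of mitochondrial beta-oxidation on short and medium chains. It measured 12.07, 12.01 and 12.43 with cholesterol, 11.55 and 10.08 with the standard-diet label, and 11.95 and 11.42 in wild type. The cholesterol-diet arrays were the 3 highest, though by a margin of only 0.055, and CETP standard-diet-label replicate 5 was far below the rest. The difference from wild type was 0.48 ± 0.39 (SE) with cholesterol and -0.87 ± 0.43 with the standard-diet label. Without CETP standard-diet-label replicate 5 the second was -0.14, and without replicate 4 it was -1.61. Without wild-type replicate 2 the first was 0.75, and without wild-type replicate 3 it was 0.21.

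Read by group, the arrays of the CETP cholesterol diet and wild type did not overlap for 3 members on the lower side (Gk, Dagla and Sec14l2) and 1 on the higher side (Hadh). Over all features, 15.1% were apart on the lower side and 9.96% on the higher side. The members' adjusted p by limma in this comparison ran from 0.467 for Gk to 0.767 for Dagla. Between the standard-diet label and wild type, 4 members were apart on the lower side (Acsf2, Gk, Dagla and Sec14l2) and none on the higher side, where 19.3% and 12.1% of all features were apart. The members' adjusted p by limma ran there from 0.925 to 0.960. The median difference of the 6 genes was 0.12 with cholesterol and -0.83 with the standard-diet label, where the median over all features was -0.05 for each. These medians follow a choice of genes made on the same arrays and share the wild-type animals.

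**Figure D2:**
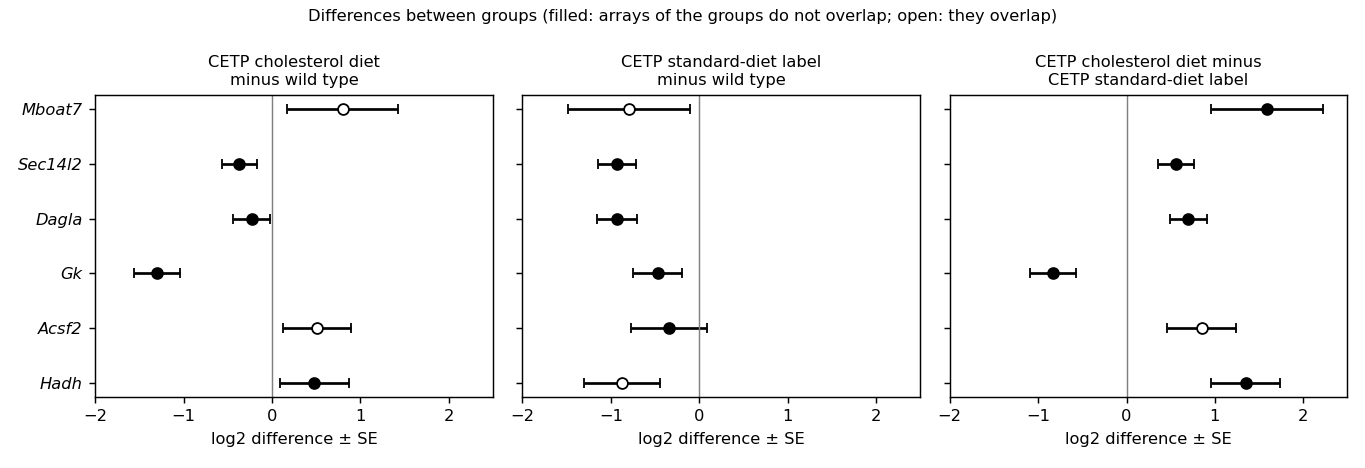
Log2 difference with its SE (x axis) for the 6 genes (rows) in the 3 comparisons, from 1 limma model of all 7 arrays, with filled symbols where the arrays of the 2 groups do not overlap. In the middle panel all 6 differences are below 0, and on the right Gk alone is below 0.

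Between the CETP groups, the comparison on which the fold table had selected the genes, 5 of 6 members had higher means with cholesterol than with the standard-diet label. Over all features, 50.3% had lower means with cholesterol. The members' differences were 1.59 ± 0.63 (SE) for Mboat7, 1.35 ± 0.39 for Hadh and 0.85 ± 0.39 for Acsf2. They were 0.70 ± 0.21 for Dagla, 0.56 ± 0.20 for Sec14l2 and -0.83 ± 0.26 for Gk. Arrays were apart for 4 members on the higher side and 1 on the lower side, and overlapped for Acsf2 (background 9.91% higher and 8.54% lower). The Acsf2 difference was 0.13 with the spike-in covariate, 1.30 without cholesterol-diet replicate 2 and 0.54 without cholesterol-diet replicate 3. For Mboat7 the difference was 0.94 with the spike-in covariate and 0.89 without CETP standard-diet-label replicate 5. For Hadh it was 0.62 without CETP standard-diet-label replicate 5 and 2.09 without replicate 4.

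The genes differed in how they varied from animal to animal. Likeness was taken as the mean absolute difference between 2 genes over the 7 arrays, after each gene's own mean was subtracted. Dagla and Sec14l2 were the closest pair of members, 0.174 apart, and both were lowest on the 2 CETP standard-diet-label arrays. Mboat7 and Hadh were 0.418 apart. Both were highest on cholesterol-diet replicate 3 and lowest on CETP standard-diet-label replicate 5, and in wild type both were higher in replicate 2 than in replicate 3. Gk and Mboat7, at 1.203, were the farthest pair, and Gk was highest in wild-type replicate 3 and lowest in cholesterol-diet replicate 3. A distance of this kind is small where both genes vary little. The mean absolute deviation from the gene's own mean was 0.367 for Dagla and 0.289 for Sec14l2, against 0.872 for Mboat7. Of the named genes, 19 lay nearer to Dagla than Sec14l2 did. These distances share the arrays and their normalization and are descriptions. All named genes came from the fold table, so a shared difference between the 2 CETP groups is partly built in.

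**Figure D3:**
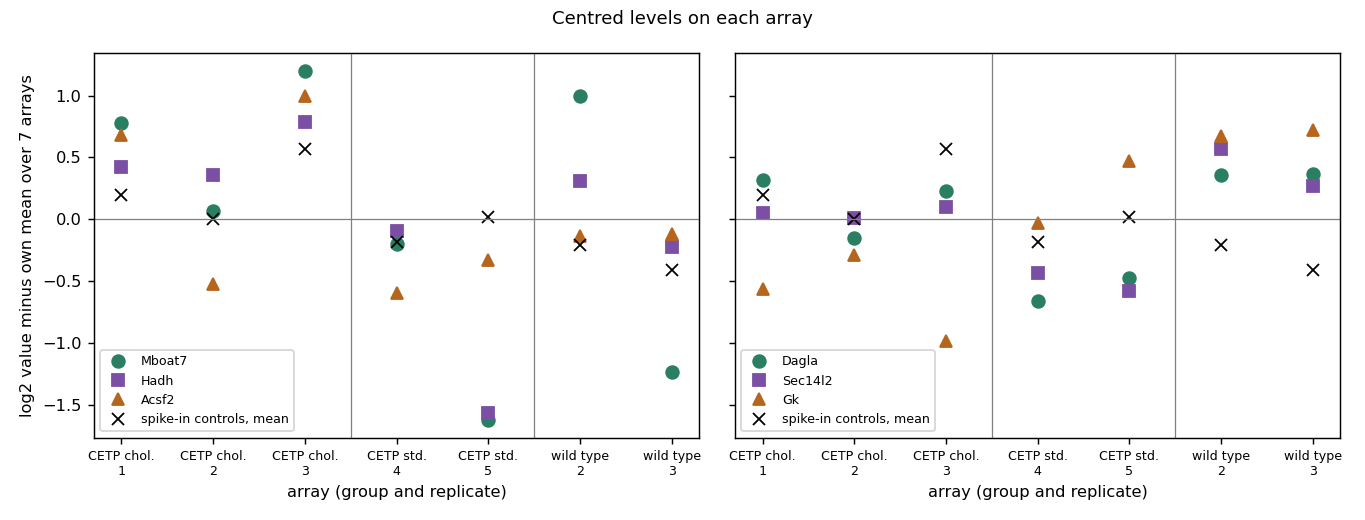
Log2 value minus the gene's own mean over 7 arrays (y axis) for each array (x axis, group and replicate), with the mean of the spike-in controls as crosses. Mboat7 and Hadh are at -1.62 and -1.56 on CETP standard-diet-label replicate 5, and Gk is at -0.98 on cholesterol-diet replicate 3, where the spike-in controls are at 0.57.

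Among the other 1592 named genes, the 3 nearest to Gk were Zc3h15 at 0.122, Ska2 at 0.127 and Cdkal1 at 0.143. Nearest to Dagla were Slc35f6 and Cntn6 at 0.099 each and Olfr1342 at 0.101. For Sec14l2 they were Trpv5 at 0.099, Api5 at 0.101 and Tor2a at 0.120. Hadh lay nearest to Lrsam1 at 0.149, Blcap at 0.190 and Zbtb4 at 0.223, and Mboat7 to Med24 at 0.374, Lrsam1 at 0.383 and C21orf62, as the file names it, at 0.398. Lrsam1 thus stood near both Hadh and Mboat7, with 11.62, 11.51 and 12.19 on the cholesterol-diet arrays, 11.25 and 10.04 with the standard-diet label and 11.87 and 10.96 in wild type. Acsf2 had Mrgpra7 at 0.161, Plbd2 at 0.164 and the clock gene Per2 at 0.179 as neighbours. Among these neighbours Cntn6, Olfr1342, Trpv5 and Mrgpra7 were dimmer than the median negative control (7.48 to 7.69) of each of the 7 arrays, so their values may be background and their rank and distance carry little meaning. No member was among the 3 nearest genes of another.

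Of 224 symbols in 9 lists of fatty acid and glycerolipid metabolism, 17 were named on the arrays, the 6 members and 11 others. The fold table had selected these 11 in the same way. None passed the test in either comparison with wild type by limma, as for all features (0% called). With cholesterol 4 of the 11 had lower and 7 higher means than wild type, with a median difference of 0.07 and a range of -0.86 to 0.44. With the standard-diet label 7 had lower and 4 higher means, with a median of -0.12 and a range of -1.04 to 0.91. Between the CETP groups 5 were lower and 6 higher with cholesterol, with a median of 0.36. Leaving out single arrays moved the median to between -0.01 (without cholesterol-diet replicate 2 or wild-type replicate 2) and 0.29 (without wild-type replicate 3) for cholesterol against wild type. For the standard-diet label against wild type it lay between -0.24 without wild-type replicate 2 and -0.07 without wild-type replicate 3, and between the CETP groups it was 0.09 without CETP standard-diet-label replicate 5. Against wild type the adjusted p by limma was 0.556 or more in all 11 genes.

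**Figure D4:**
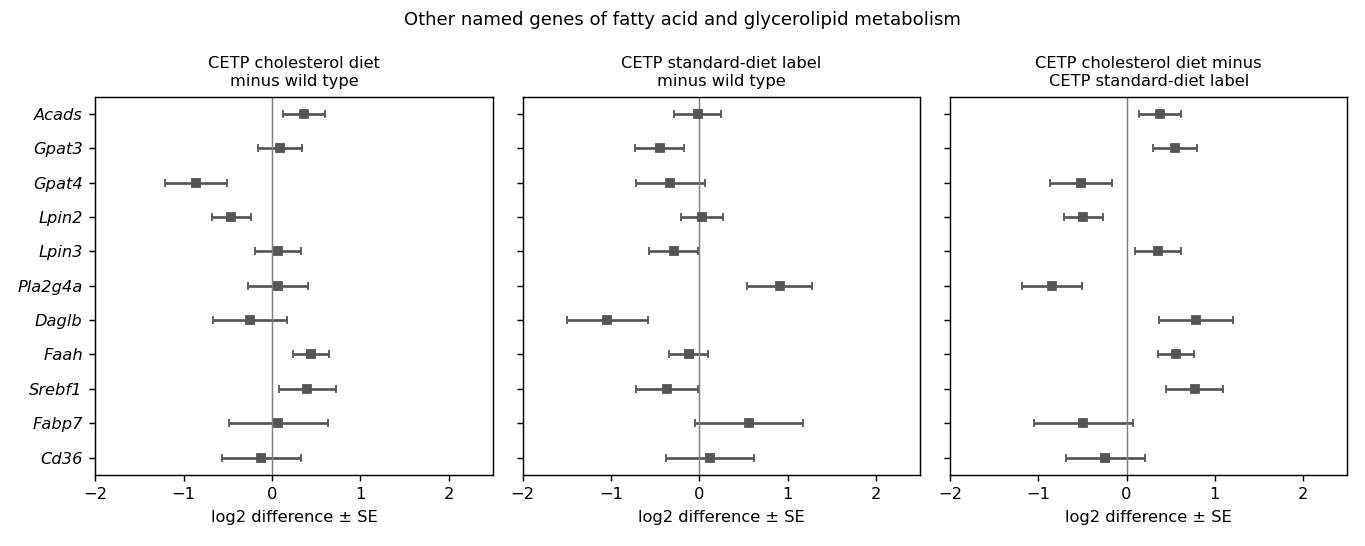
Log2 difference with its SE (x axis) of the 11 other named pathway genes (rows) in the 3 comparisons, from the same limma model. Gpat4 and Lpin2 lie at -0.86 and -0.46 on the left, and Pla2g4a and Daglb at 0.91 and -1.04 in the middle panel.

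Beside Gk, 4 other genes on the route from glycerol phosphate to triglyceride were named. Gpat4, an acyltransferase that adds the first acyl chain to glycerol 3-phosphate, measured 7.66, 8.21 and 8.02 with cholesterol, 8.46 and 8.51 with the standard-diet label, and 9.48 and 8.16 in wild type. Its difference from wild type was -0.86 ± 0.35 (SE) with cholesterol and -0.33 ± 0.39 with the standard-diet label, and the cholesterol-diet arrays overlapped with wild type. The 2 wild-type arrays lay far apart, and the 7.66 was close to the median negative control (7.48 to 7.69 by array). Lpin2, a phosphatidate phosphatase that makes diacylglycerol, measured 10.19, 10.63 and 10.34 with cholesterol, 10.74 and 11.02 with the standard-diet label, and 10.97 and 10.73 in wild type. That put all 3 cholesterol-diet arrays below all 4 others, a difference from wild type of -0.46 ± 0.22. Over all features, 15.1% were apart on the lower side against wild type. Against the standard-diet label, the comparison behind the fold table, 8.54% were. With the standard-diet label Lpin2 differed by 0.03 ± 0.24. Gpat3, of the same acyltransferase step, differed by 0.09 ± 0.25 with cholesterol and by -0.45 ± 0.28 with the standard-diet label. On 1 of the 7 arrays Gpat3 was dimmer than the median negative control. The sister phosphatase gene Lpin3 differed by 0.07 ± 0.26 with cholesterol and by -0.29 ± 0.28 with the standard-diet label, and was dimmer than the median negative control of each of the 7 arrays.

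On the endocannabinoid side, Daglb, the second diacylglycerol lipase, measured 12.47, 12.07 and 12.66 with cholesterol, 12.32 and 10.91 with the standard-diet label, and 13.12 and 12.18 in wild type. The 2 CETP standard-diet-label arrays lay far apart, and the difference from wild type was -0.25 ± 0.42 (SE) with cholesterol and -1.04 ± 0.46 with the standard-diet label. Faah, which breaks down the endocannabinoid anandamide, differed by 0.44 ± 0.20 with cholesterol and by -0.12 ± 0.22 with the standard-diet label. Pla2g4a, the phospholipase that frees arachidonic acid from membranes and so acts opposite to Mboat7, measured 9.24, 9.50 and 8.79 with cholesterol, 9.55 and 10.48 with the standard-diet label, and 8.77 and 9.45 in wild type. Both standard-diet-label arrays were above both wild-type arrays, as for 12.1% of all features, and the difference was 0.91 ± 0.37, against 0.07 ± 0.34 with cholesterol.

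For oxidation and synthesis, Acads, the short-chain acyl-CoA dehydrogenase that acts before Hadh, differed from wild type by 0.36 ± 0.24 (SE) with cholesterol and by -0.02 ± 0.27 with the standard-diet label. Srebf1, the transcription factor that drives fatty acid synthesis, differed by 0.40 ± 0.32 with cholesterol and by -0.37 ± 0.35 with the standard-diet label. Fabp7, the brain fatty acid binding protein of astrocytes, ranged from 14.33 to 16.53 within the cholesterol-diet group and differed by 0.07 ± 0.56. Cd36, a fatty acid uptake receptor, lay between 4.63 and 6.24 on all arrays, below the negative control median of 7.48 to 7.69, so its value may be background. In the list of peroxisomal oxidation none of the 18 genes was named.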

How the data were processed

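The authors deposited log2 values of their own making, which come from biotin-labelled cRNA made of 10 ng total RNA, per the labels' protocols. How they were summarized and normalized is not stated in the labels or headers. The base of 2 follows from the authors' deposited table of signed folds (a score below and above 0, of QIAGEN origin per the file headers), whose folds equalled those of biweight averages (constant 5) of CETP standard-diet-label over cholesterol-diet arrays within 0.0051 for 98.5% of 1778 probe sets.

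Of 28846 entries 22206 transcript probe sets were kept, and 1606 took names from the fold table, checked against RefSeq (GRCm38.p6, names only) by chromosome. Entries naming several genes (160) or a gene on another chromosome (12) stayed unnamed. The brightest probe set of a gene was used, giving 22193 features. Only probe sets in the fold table could be named, so its threshold limits which genes are described.

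All features of all 7 arrays entered 1 limma model of 3 group means (limma 3.58.1, R 4.3.3; lmFit and eBayes), and 3 contrasts were adjusted by Benjamini-Hochberg at 0.05. It was also run on simulated data with independent noise. Those data lack the array and cell type effects that real samples may have, so that run bears on the code only. The number of arrays limits precision. A p-value sets a group difference against the spread between animals within groups, which limma moderates with a prior from all features. That spread had 4 residual and 5.39 prior degrees of freedom. The members, pathway lists and alternatives were chosen with earlier results of these data known. Named genes were the members, up to 3 genes per list by size of the first contrast, and 3 nearest genes per member; Lpin3 was added to complete its list. Tables and figures were made in Python 3.11.15 with pandas 2.3.3, numpy 2.4.6 and matplotlib 3.10.9.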

Additional observations from a re-analysis of the deposited data

How the results depend on the processing

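The adjusted count was 0 in each comparison, and 1924, 1175 and 675 at an unadjusted p under 0.05, for the cholesterol diet against wild type, the standard-diet label against wild type and the 2 CETP groups. The unadjusted counts include the fraction of 0.05 of all features that is expected without any difference. Leaving out single arrays gave 0 throughout in the first comparison, 0 to 9 in the second and 0 to 14 in the third. The 9 and 14 came without CETP standard-diet-label replicate 5, and the 9 held no member. Replicate numbers 2 and 3 occur in both the cholesterol-diet and the wild-type group, and with them as a replicate block 7 features were called on the higher side, no member among them, with 1 residual degree of freedom. Deviations of same-numbered arrays correlated at 0.008 and 0.037. The deviations of the 2 wild-type arrays mirror each other, so these correlations cannot show whether same-numbered samples share more than the number. The labels do not say that it marks a shared litter, batch or day. Quantile normalization, median subtraction, the filter on dim probe sets (mean over 7.58), averaged probe sets, the trended robust prior, only the groups compared and the spike-in covariate each gave 0.

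The direction of a member's difference turned in 3 of 90 refits for the cholesterol diet against wild type (Mboat7 at -0.32 and -0.29, Acsf2 at -0.69), in 1 of 84 for the standard-diet label against wild type (Mboat7 at 0.32) and in 0 of 84 between the CETP groups. The settings of these turns are named in the text above. Many of the refits could not move a member's difference, so these shares say little about its stability. They left out an array of a group not compared, used only the groups compared, filtered dim probe sets, averaged probe sets or changed the prior. Where an arm kept 1 array, that array was assumed to vary like the other groups.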
